A study of Mus musculus with 48 samples.

Results

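Gene expression was compared between induced pluripotent stem cells (iPSCs) cultured in 2i and iPSCs cultured without doxycycline (-dox). The comparison takes 8 of the 48 libraries of the series, chosen by their labels: MKOS iPSCs and OKMS iPSCs in 2i, with 2 libraries each, against MKOS iPSCs and OKMS iPSCs -dox, with 2 libraries each. Fold changes are 2i over -dox with the cassette as a covariate, for transcripts only. The study followed reprogramming of mouse embryonic fibroblasts (MEFs) by polycistronic cassettes, and besides these iPSCs it sequenced MEFs, sorted intermediates, embryonic stem cells (ESCs), and the iPSC line D6, in 20 conditions in all.

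MKOS and OKMS are doxycycline-inducible cassettes named after the order of c-Myc, Klf4, Oct4, and Sox2 in them, and the OKMS cassette carries a shorter Klf4. Each cassette, with an rtTA driven by the CAG promoter, had been targeted to the third intron of Sp3 in TNG ESCs, which carry a Nanog-GFP reporter. MEFs for reprogramming came from chimeric embryos made with these ESCs, so the 8 iPSC libraries share the reporter and the rtTA, and differ in cassette and medium. The iPSCs are described as established clones. The number of clones is not given in the sources used here, nor whether the same clones were grown in both media, so a difference between clones and a difference between media cannot be told apart where the clones differ. The sources used here also do not define 2i, its duration, its base medium, or whether doxycycline or serum was present in it. The MEFs and ESCs of the study are labelled as grown in GMEM with LIF. Its methods describe the medium of MEFs as GMEM with fetal calf serum. For ESCs and iPSCs they give the same medium with LIF added, without naming 2i.

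As background, 2i is the field's name for a pair of kinase inhibitors that hold mouse pluripotent cells in a naive state. An inhibitor of MEK blocks signaling from FGF4, an autocrine growth factor, through ERK, which otherwise primes the cells for differentiation. An inhibitor of GSK3 stabilizes β-catenin, which relieves repression by TCF7L1 and turns on Wnt target genes. Mouse ESCs in 2i are known for low expression of de novo DNA methyltransferases and of genes that mark the early postimplantation epiblast.

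Reads were counted at the 5′ ends of transcripts (STRT), and levels are given in CPM, the reads of a transcript scaled to the total of reads on transcripts in the library, which do not scale with transcript length. The 8 libraries held 4546060 to 9643768 reads on transcripts, the deepest being MKOS -dox replicate 1, and 3 reads, used here as the floor of detection, corresponded to 0.311 to 0.660 CPM. Mitochondrial genes took 5.56% to 9.72% of the reads in both media. On the first principal component, which held 28.1% of the variance, the 4 libraries in 2i lay between 34.1 and 64.7 and the 4 -dox libraries between -64.1 and -29.7. The labelled cell type was checked with marker genes. The summed level of 10 pluripotency markers was 13412 to 19315 CPM in 2i and 17480 to 19787 CPM in -dox libraries, against 3.65 to 16.4 CPM in the 6 MEF libraries, and Tdgf1 and Utf1 were the 2 that differed between the media. The summed level of 12 fibroblast markers was 17.1 to 44.4 CPM in 2i and 12.4 to 30.3 CPM in -dox, against 3415 to 6201 CPM in MEFs, and none of the 9 of these markers that were tested differed between the media. Markers of primitive endoderm, mesoderm, neuroectoderm, and trophoblast each summed to at most 13.6 CPM in the 8 libraries, with Foxa2 at 0 reads in all of them, and none of the 7 of these that were tested differed between the media.

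Of 12353 transcripts tested with edgeR's quasi-likelihood test, 274 were called at a Benjamini-Hochberg adjusted p of at most 0.05, which is 2.22% of those tested. Of these, 136 were higher in 2i (1.10% of those tested) and 138 were lower (1.12%). The median log2 fold change was 1.77 for the higher and -2.17 for the lower transcripts, and 262 of the 274 differed by at least 2-fold. Among the higher transcripts, 133 had all 4 libraries in 2i above all 4 -dox libraries, and among the lower, 124 had all 4 below, whereas 6.08% of all tested transcripts had no overlap with 2i above and 3.09% with 2i below. The number of calls rested on single libraries: it was 121 without MKOS -dox replicate 2, 170 without MKOS 2i replicate 2, and 181 without OKMS 2i replicate 1, and 102 transcripts, 42 higher and 60 lower, were called whichever library was left out. Without TMM scaling, which moved the median of all transcripts by 0.105 on the log2 scale, the calls were 177 higher and 114 lower. The libraries of a condition are not stated to be separate cultures, so the p-values measure the spread between these libraries.

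**Figure D1:**
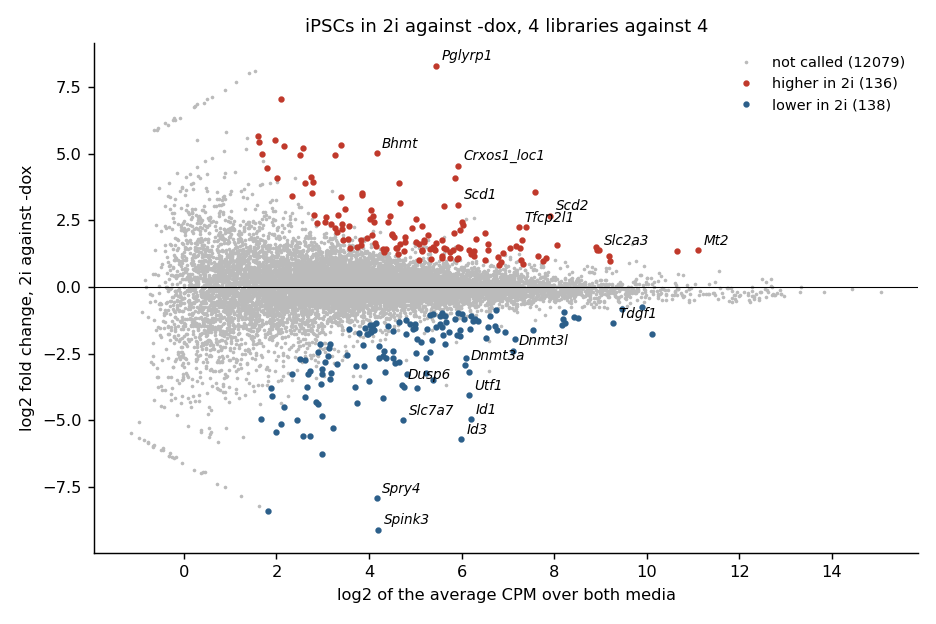
Each point is 1 of 12353 tested transcripts, with the log2 of its average CPM on the horizontal axis and its log2 fold change, 2i over -dox, on the vertical axis. The 136 called higher (red) and 138 called lower (blue) lie above and below 0, and the uncalled transcripts (grey) spread around 0, more widely at low levels.

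The first question was how transcripts downstream of ERK differed, since MEK is a target of 2i. Of 29 tested genes in a list of ERK feedback and response genes, 7 were lower in 2i and none was higher. This was 24.1%, beside 2.22% of all transcripts called in either direction. The median log2 fold change was -0.85, against -0.0085 for all transcripts tested. The 7 were Dusp6, Spry4, Spry2, Etv4, Myc, Ier2, and Plaur, and 4 of them were called without MKOS -dox replicate 2 and 4 without OKMS 2i replicate 1. Values are given here and in what follows in the order MKOS replicate 1, MKOS replicate 2, OKMS replicate 1, and OKMS replicate 2.

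Dusp6 encodes a cytoplasmic phosphatase that removes the activating phosphates from ERK and is itself induced by ERK. It was measured at 34.0, 45.2, 78.8, and 34.7 CPM in the -dox libraries and at 6.05, 2.20, 3.17, and 4.92 CPM in 2i (log2 fold change -3.66 ± 0.40 (SE), adjusted p = 0.00023). All 4 values in 2i were below all 4 -dox values, in both cassettes. Spry4, a Sprouty protein that restrains receptor tyrosine kinase signaling, was at 16.4, 50.4, 49.5, and 26.5 CPM in -dox libraries and at 0, 0, 0.528, and 0 CPM in 2i (adjusted p = 3.3e-05). Only 3 reads of Spry4 were counted in 2i, all in OKMS replicate 1, and the level was 221-fold (95% interval 75.4 to 1074, counting error only) higher in -dox libraries. Because these are bulk samples, fewer cells with a transcript and less of it per cell cannot be told apart here. Etv4, an ETS transcription factor induced by FGF, was at 13.5, 31.2, 17.1, and 8.02 CPM in -dox libraries and 0.865, 4.62, 2.99, and 1.41 CPM in 2i (log2 fold change -2.87 ± 0.56 (SE), adjusted p = 0.013). The groups of Etv4 did not overlap, but the call was lost without MKOS -dox replicate 2 (adjusted p = 0.098). Myc was at 9.02, 25.7, 7.42, and 14.3 CPM in -dox libraries and 0, 0.440, 1.59, and 0.878 CPM in 2i (log2 fold change -4.38 ± 0.75 (SE), adjusted p = 0.0053), again without overlap. Reads of the endogenous Myc and of the Myc in the cassettes were not separated.

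Ier2, an immediate-early gene, differed less (84.1 to 117 CPM in -dox and 44.4 to 53.7 CPM in 2i, log2 fold change -1.09, adjusted p = 0.016), although its groups did not overlap. Spry2 (-1.73, adjusted p = 0.038) and Plaur (-2.54, adjusted p = 0.043), the urokinase receptor, were called with all 8 libraries, but not in 7 and 6 of the 8 comparisons with 1 library left out (adjusted p up to 0.14 without MKOS -dox replicate 1 for Spry2 and up to 0.16 without MKOS -dox replicate 2 for Plaur), and the call of Ier2 was lost without OKMS 2i replicate 1 (adjusted p = 0.065). Dusp6, Spry4, and Myc were called in all 8. The other 22 tested genes of the list did not pass the test. Among these, Dusp4, another ERK phosphatase, had a log2 fold change of -4.34, adjusted p = 0.057, with no overlap between media. The log2 fold change was -1.60 for Egr1 (adjusted p = 0.64) and -0.29 for Etv5, another FGF-induced ETS factor (adjusted p = 0.6). For Ccnd1 it was -0.04 (adjusted p = 0.98), and without TMM scaling the log2 fold change of Ccnd1 was 0.052. Etv5 was at 185, 159, 158, and 188 CPM in -dox libraries and 131, 187, 158, and 132 CPM in 2i, and the groups overlapped.

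In a list of 21 tested FGF ligands, FGF receptors, and components of the ERK cascade, Fgf15 was the only member called. This was 4.76%, beside 2.22% of all transcripts called in either direction. Fgf15, a secreted FGF, was at 4.04, 16.9, 12, and 19 CPM in -dox libraries and 0, 0, 1.23, and 0 CPM in 2i (log2 fold change -5.57 ± 0.93 (SE), adjusted p = 0.0043), without overlap. The autocrine ligand Fgf4 was at 92.0, 75.2, 83.3, and 61.1 CPM in -dox libraries and 33.1, 65.1, 70.3, and 68.7 CPM in 2i (log2 fold change -0.51, adjusted p = 0.42), and the groups overlapped. Fgf5, a marker of the postimplantation epiblast, had no read in the 4 libraries in 2i and 0, 2.66, 0.825, and 3.21 CPM in -dox libraries, at least 9.84-fold higher over the group's floor of 3 reads, but did not pass the test (adjusted p = 0.21).

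**Figure D2:**
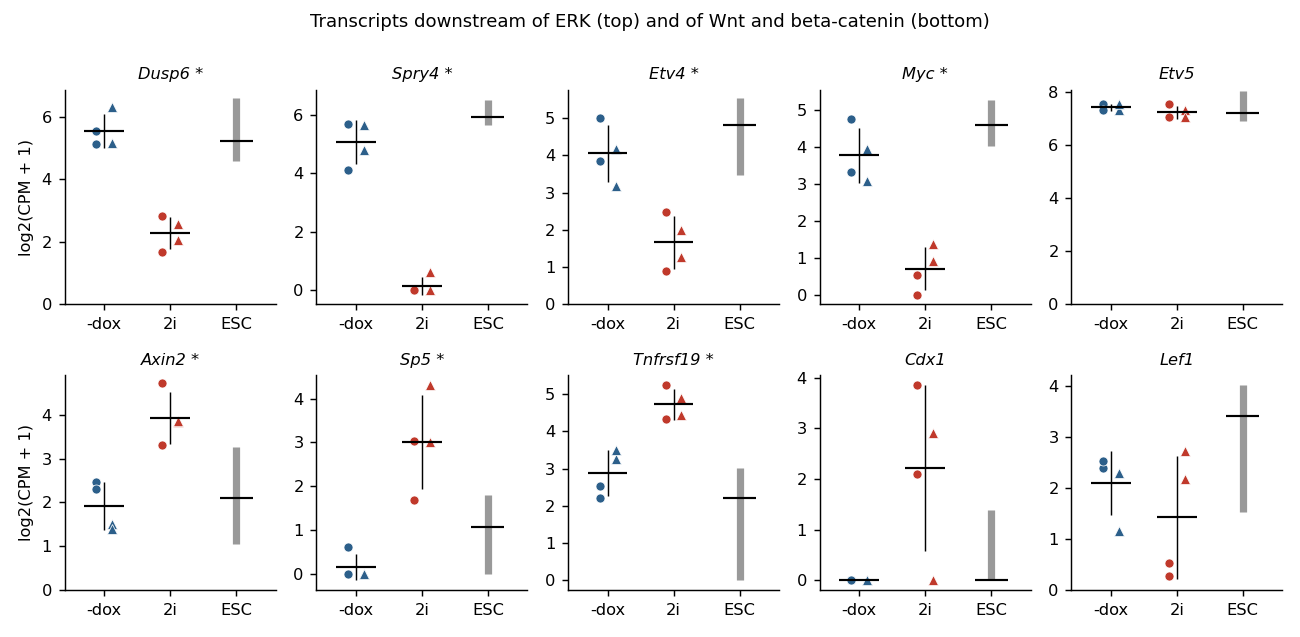
Levels of 5 ERK response genes and 5 Wnt target genes as log2(CPM + 1), with 1 point per library (circles MKOS, triangles OKMS), the mean and SD of the 4 libraries of a medium as lines, and the range and median of 8 ESC libraries as a grey bar with a line. An asterisk marks genes called between the media; Dusp6, Spry4, Etv4, and Myc lie lower in 2i without overlap, Axin2, Sp5, and Tnfrsf19 lie higher, and Etv5 and Lef1 overlap.

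Wnt target genes, which GSK3 inhibition is known to induce, were examined next. Of 17 tested members of a list of β-catenin target genes, 4 were higher in 2i (Axin2, Sp5, Tnfrsf19, and Tfcp2l1) and none was lower. The median log2 fold change was 1.18, and 23.5% were called, beside 2.22% of all transcripts in either direction. Without MKOS -dox replicate 2 the number called was 1, and without MKOS 2i replicate 2 it was 2. The promoter of Sp5 is shown because Sp5 had the largest fold change of the 4 and its window holds a TCF motif. The sequence is the RefSeq window of 250 bases before to 50 bases after the start site on GRCm38.p6 (chr2:70474673-70474972, strand +), and the capitals mark CTTTGAT, the core letters bound by TCF/LEF factors, which begins 104 bases before the start site.
Sp5: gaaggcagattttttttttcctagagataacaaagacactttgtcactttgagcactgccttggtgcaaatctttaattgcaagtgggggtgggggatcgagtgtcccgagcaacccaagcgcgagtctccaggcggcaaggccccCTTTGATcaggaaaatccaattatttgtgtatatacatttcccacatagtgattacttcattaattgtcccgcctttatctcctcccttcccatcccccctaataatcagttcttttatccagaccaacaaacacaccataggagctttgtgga
These letters, searched on both strands, occurred in a window of 4.29% of the 27025 genes with a window and 2.89% of the 8672 among them that were tested, and among the 4 called Wnt targets in those of Sp5 and Tnfrsf19. They occurred in 4 of 87 windows of genes called higher in 2i (4.60%) and in 6 of 87 of those called lower (6.90%). A match is a description of the letters in this window, and binding was not measured.

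Sp5, a zinc finger repressor that acts downstream of Wnt, was at 0.518, 0, 0, and 0 CPM in -dox libraries, where a single library held reads, and at 7.13, 2.20, 7.05, and 18.8 CPM in 2i (log2 fold change 5.28 ± 1.09 (SE), adjusted p = 0.019). All 4 libraries in 2i were above the -dox libraries. Axin2, a scaffold of the β-catenin destruction complex and a feedback target of Wnt, was at 4.56, 3.90, 1.86, and 1.60 CPM in -dox libraries and 8.86, 25.3, 13.2, and 13.5 CPM in 2i (log2 fold change 2.35 ± 0.48 (SE), adjusted p = 0.017), without overlap. The receptor gene Tnfrsf19 was at 3.63, 4.79, 8.66, and 10.3 CPM in -dox libraries and 19.2, 37.0, 20.6, and 28.6 CPM in 2i (log2 fold change 1.94 ± 0.40 (SE), adjusted p = 0.019), again without overlap. These levels were low, and the calls depended on single libraries: Axin2 was not called without MKOS 2i replicate 2 (adjusted p = 0.13) or MKOS -dox replicate 2 (0.059), Sp5 not without OKMS 2i replicate 2 (adjusted p = 0.1) or MKOS -dox replicate 2 (0.059), and Tnfrsf19 not without MKOS -dox replicate 1 (adjusted p = 0.076), MKOS -dox replicate 2 (0.096), or MKOS 2i replicate 2 (0.059). With all 48 libraries of the series in the fit, none of the 3 was called (adjusted p = 0.11 for Axin2, 0.058 for Sp5, and 0.067 for Tnfrsf19).

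Cdx1, a homeobox target of Wnt, had no read in the -dox libraries and 13.4, 3.30, 0, and 6.50 CPM in 2i. This was at least 47.6-fold higher over the group's floor of 3 reads, with an adjusted p of 0.051 and with no read in OKMS replicate 1. Its relative Cdx2 was also without a read in -dox libraries and at 2.59, 2.64, 1.06, and 2.99 CPM in 2i (adjusted p = 0.098). Lef1 did not pass the test (4.25, 4.79, 1.24, and 3.92 CPM in -dox and 0.216, 0.440, 5.64, and 3.51 CPM in 2i, adjusted p = 0.69), and its 2 MKOS libraries in 2i were the lowest of the 8. T, which encodes Brachyury, was at 1.41 CPM or less in each of the 8 libraries and was not tested. None of 24 tested components of the Wnt pathway, among them the genes for β-catenin, GSK3, and the Frizzled receptors, was called.

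Tfcp2l1 and Tbx3 were the 2 genes that were higher in 2i among 31 tested genes of a pluripotency list. Beside naive factors, that list holds general pluripotency genes such as Pou5f1, Sox2, Utf1, and Lin28a. Lower in 2i were Tdgf1, Dppa4, Dppa2, Utf1, Lin28a, and Manba. The median log2 fold change of the list was -0.11, and 25.8% of its tested genes were called, beside 2.22% of all transcripts. Tfcp2l1, a transcription factor of the naive network that responds to both LIF and Wnt, was at 86.4, 28.7, 23.5, and 65.2 CPM in -dox libraries and 232, 294, 228, and 255 CPM in 2i (log2 fold change 2.23 ± 0.33 (SE), adjusted p = 0.0023). The lowest library in 2i held 228 CPM and the highest -dox library 86.4 CPM. Tbx3, a T-box factor that sustains naive cells, was at 29.1, 14.9, 5.98, and 30.6 CPM in -dox libraries and 60.1, 85.1, 66.4, and 54.8 CPM in 2i (log2 fold change 1.63 ± 0.38 (SE), adjusted p = 0.037), without overlap. The call of Tbx3 was lost in 5 of 8 comparisons with a library left out (adjusted p up to 0.15 without MKOS -dox replicate 2), and that of Tfcp2l1 in none.

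None of the core factors named here passed the test with all 8 libraries. For Klf4, Nanog, Prdm14, and Dppa3 the outcome depended on the processing. Nanog was at 109, 41.3, 47.2, and 131 CPM in -dox libraries and 107, 248, 156, and 212 CPM in 2i (log2 fold change 1.06 ± 0.36 (SE), adjusted p = 0.15). MKOS replicate 1 in 2i lay within the -dox values, and the other 3 libraries in 2i lay above them. Klf4 was at 71.7, 15.1, 19.6, and 24.9 CPM in -dox libraries and 95.6, 99.4, 98.8, and 74.1 CPM in 2i (log2 fold change 1.46 ± 0.36 (SE), adjusted p = 0.051). Its groups did not overlap, the MKOS -dox replicate 1 library being the closest to those in 2i, and reads of endogenous and cassette Klf4 were not separated. Prdm14, a repressor of de novo methylation and of FGF signaling, was at 11.8, 3.55, 0.825, and 9.98 CPM in -dox libraries and 15.1, 28.2, 17.8, and 31.3 CPM in 2i (log2 fold change 1.74 ± 0.56 (SE), adjusted p = 0.13), also without overlap. Klf4 was called in 8 of 17 alternatives (adjusted p = 0.0026 with DESeq2, 0.021 with a replicate block, and 0.0018 without MKOS -dox replicate 1, for example), and Nanog and Prdm14 were called in 2, with DESeq2 (adjusted p = 0.045 and 0.042) and with no filter on low counts (0.00069 and 0.0012). Pou5f1 (-0.45, adjusted p = 0.28), Sox2 (-0.19, adjusted p = 0.76), Esrrb (0.45, adjusted p = 0.62), Klf2 (-0.18, adjusted p = 0.87), Zfp42 (-0.22, adjusted p = 0.82), and Dppa3 (0.79, adjusted p = 0.51) had log2 fold changes that did not pass, and their groups overlapped. Of these, Dppa3 was called in 1 of the 17 alternatives.

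Utf1 showed the largest decrease of the list. This chromatin-associated factor of undifferentiated cells was at 156, 136, 134, and 110.1 CPM in -dox libraries and at 10.2, 9.02, 14.8, and 1.05 CPM in 2i (log2 fold change -4.05 ± 0.48 (SE), adjusted p = 0.00036), and was lower in all 4 libraries in 2i. Dppa4 (log2 fold change -1.60 ± 0.19 (SE), adjusted p = 0.00037) and Dppa2 (log2 fold change -1.63 ± 0.26 (SE), adjusted p = 0.0035), whose products form a heterodimer on chromatin, were lower without overlap. Dppa4 was at 273, 287, 235, and 306 CPM in -dox libraries and 101, 97.7, 92.7, and 99.6 CPM in 2i. Over all libraries 12.9% of its reads were unique to 1 position, so that reads of close copies may be included. Tdgf1, the Nodal co-receptor Cripto, was at 1061, 741, 936, and 755 CPM in -dox libraries and 221, 464, 546, and 233 CPM in 2i (log2 fold change -1.36 ± 0.29 (SE), adjusted p = 0.021), and the RNA-binding protein gene Lin28a was lower as well (log2 fold change -1.51, adjusted p = 0.0043), both without overlap. Manba, which encodes a lysosomal mannosidase, was the sixth (log2 fold change -1.64, adjusted p = 0.024). Leaving out MKOS -dox replicate 1 ended the calls of Tdgf1 (adjusted p = 0.064) and Manba (0.12), with Tdgf1 lost in 2 and Manba in 4 of the 8 comparisons, whereas Utf1, Dppa2, Dppa4, and Lin28a were called in all 8 comparisons. Lin28a was not called with all 48 libraries in the fit (adjusted p = 0.26).

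Of 31 tested genes of the formative and primed epiblast, 8 were lower in 2i and none was higher. This was 25.8%, beside 2.22% of all transcripts called in either direction, and the median log2 fold change of the list was -1.74. Among the 8 were Otx2, Pou3f1, Dnmt3a, Dnmt3b, Dnmt3l, Myc, and Mycn. Otx2, the homeobox factor that drives the exit from the naive state, was at 87.7, 69.9, 57.9, and 88.4 CPM in -dox libraries and 3.24, 15.4, 8.28, and 2.99 CPM in 2i (log2 fold change -3.47 ± 0.44 (SE), adjusted p = 0.00062). Every library in 2i was below every -dox library. Mycn, a Myc family member, fell from 57.0 to 93.6 CPM to 13.2 to 36.0 CPM (log2 fold change -1.69, adjusted p = 0.0087). Pou3f1, the POU factor Oct6, was at 3.53 to 14.5 CPM in -dox libraries and 0 to 1.59 CPM in 2i (adjusted p = 0.03), and its call was lost in 5 of 8 comparisons (adjusted p up to 0.12 without MKOS -dox replicate 2). The other 7 were called whichever library was left out, although Mycn was not with all 48 libraries in the fit (adjusted p = 0.079).

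The de novo DNA methyltransferases formed part of this group. Dnmt3a was at 84.7, 189.7, 94.8, and 103 CPM in -dox libraries and 20.5, 12.8, 18.3, and 14.9 CPM in 2i (log2 fold change -2.92 ± 0.30 (SE), adjusted p = 8.5e-05). Dnmt3b was at 93.6, 242, 136, and 101 CPM in -dox libraries and 43.7, 35.2, 40.3, and 43.0 CPM in 2i (log2 fold change -1.91 ± 0.29 (SE), adjusted p = 0.0028). Dnmt3l, their catalytically inactive cofactor, was at 177, 325, 184, and 204 CPM in -dox libraries and 97.9, 63.1, 41.2, and 9.84 CPM in 2i (log2 fold change -2.39 ± 0.40 (SE), adjusted p = 0.0046). For all 3 the media did not overlap. Within 2i, Dnmt3a and Dnmt3b varied little between libraries, whereas Dnmt3l ranged from 9.84 to 97.9 CPM. The maintenance methyltransferase Dnmt1 (141, 110.0, 94.6, and 114 CPM in -dox and 129, 109.8, 129, and 152 CPM in 2i, adjusted p = 0.92) and its recruiter Uhrf1 (146 to 191 CPM in -dox and 189 to 227 CPM in 2i, adjusted p = 0.83) did not pass the test. In a list of 23 tested genes of DNA methylation and demethylation, the fourth and last called member was Gadd45g (2.14 to 20 CPM in -dox, 0 to 1.76 CPM in 2i, adjusted p = 0.036), which was lost in 5 of 8 comparisons with a library left out (adjusted p up to 0.17 without OKMS -dox replicate 1). The called share of this list was 17.4%, beside 2.22% of all transcripts. The dioxygenases Tet1 (-0.75, adjusted p = 0.2) and Tet2 (-0.40, adjusted p = 0.68) had log2 fold changes that did not pass, and no gene of Polycomb repressive complex 2 was called among 13 tested.

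**Figure D3:**
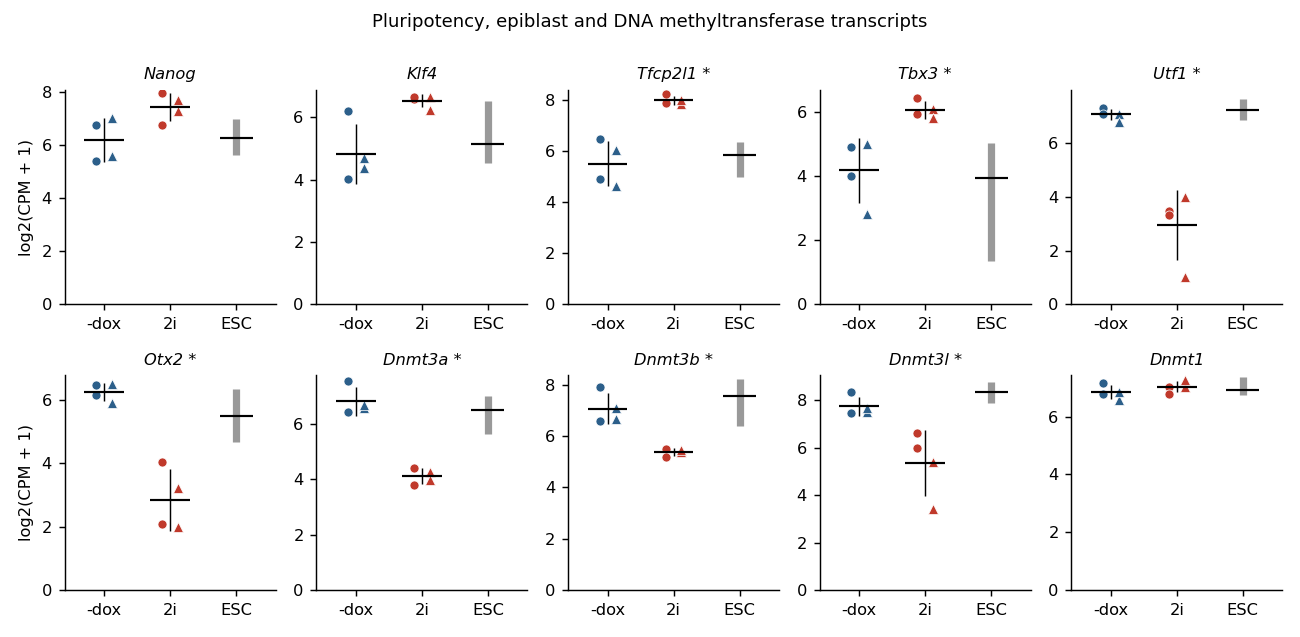
Levels of 10 transcripts as log2(CPM + 1), with 1 point per library (circles MKOS, triangles OKMS), the mean and SD of each medium as lines, and the range and median of 8 ESC libraries as a grey bar with a line. Asterisks mark called genes; Tfcp2l1 and Tbx3 lie higher in 2i, Utf1, Otx2, Dnmt3a, Dnmt3b, and Dnmt3l lie lower without overlap, and Nanog and Dnmt1 overlap.

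Id1 and Id3, which encode dominant-negative helix-loop-helix proteins induced by BMP, were both lower in 2i. Id1 was at 17.9, 251, 235, and 60.6 CPM in -dox libraries and 5.19, 5.50, 2.99, and 6.32 CPM in 2i (log2 fold change -4.95 ± 0.69 (SE), adjusted p = 0.0013). Id3 was at 16.8, 138, 269, and 75.0 CPM in -dox libraries and 0.865, 3.30, 4.76, and 1.05 CPM in 2i (log2 fold change -5.71 ± 0.72 (SE), adjusted p = 0.00062). MKOS -dox replicate 1 was the lowest -dox library for both, and was still above the 4 libraries in 2i. Id2 was not called (log2 fold change -1.43, adjusted p = 0.16). Bmp4 (4.95 to 22.4 CPM in -dox and 1.23 to 4.76 CPM in 2i, log2 fold change -2.28, adjusted p = 0.038) was the only other member called among 19 tested BMP and Id genes, and was lost in 6 of 8 comparisons (adjusted p up to 0.18 without OKMS -dox replicate 2) and with a replicate block by cassette (0.062). The median log2 fold change of that list was 0.31, with 11 of its genes above 0, and none of its receptors or Smads was called. Its called share was 15.8%, beside 2.22% of all transcripts.

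Of 16 tested genes of the Nodal pathway, Tdgf1 alone was called, whereas 4 were called without OKMS -dox replicate 1, 2 without MKOS 2i replicate 2, and 0 without MKOS -dox replicate 1. The Nodal antagonists Lefty1 (164, 95.3, 10.7, and 94.4 CPM in -dox and 0, 2.42, 9.16, and 28.3 CPM in 2i, adjusted p = 0.074) and Lefty2 (adjusted p = 0.22) varied widely, and OKMS -dox replicate 1 was within the range of 2i for Lefty1. Of 22 tested genes of the LIF and STAT3 pathway, Tfcp2l1 was higher and Pim3, a kinase, and Spry2 were lower. Pim3 was at 90.1, 58.9, 64.1, and 67.7 CPM in -dox libraries and 38.7, 38.9, 23.3, and 22.8 CPM in 2i (log2 fold change -1.33, adjusted p = 0.0097). Stat3 (0.25, adjusted p = 0.82) and its feedback inhibitor Socs3 (-0.48, adjusted p = 0.64) had log2 fold changes that did not pass the test. Among 11 retinoic acid response genes tested, the receptor gene Rarg was lower (32.6, 46.3, 32.2, and 15.9 CPM in -dox and 7.35, 5.06, 3.52, and 5.27 CPM in 2i, log2 fold change -2.67, adjusted p = 0.001), without overlap and in all 8 comparisons with a library left out. Called shares of the Nodal, LIF and STAT3, and retinoic acid lists were 6.25%, 13.6%, and 9.09%, beside 2.22% of all transcripts.

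Of 36 tested genes of cholesterol and fatty acid synthesis, 15 were higher in 2i and none was lower. This was 41.7%, beside 2.22% of all transcripts called in either direction. A log2 fold change above 0 was seen for 35, and the median was 1.03. For 25 of the 36, all 4 libraries in 2i lay above all 4 -dox libraries, beside 6.08% of all tested transcripts. The called genes named here spanned the pathway from acetyl-CoA supply (Acly) and condensation (Acat2) through the mevalonate steps (Hmgcs1, Pmvk, Fdps) and sterol synthesis (Sqle, Cyp51, Tm7sf2, Sc4mol). They also covered fatty acid desaturation (Scd1, Scd2, Fads1) and the sterol sensor gene Insig1. The size of this group rested on single libraries, and was 4 without MKOS -dox replicate 2 or MKOS 2i replicate 2, 5 without the other MKOS library of either medium, 7 and 10 without OKMS 2i replicate 1 and replicate 2, 8 without OKMS -dox replicate 2, and 15 without OKMS -dox replicate 1. Scd1 and Scd2 were called in all 8 comparisons.

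Many of these genes are known to be turned on by SREBP factors, which bind sterol regulatory elements. Promoter windows of Hmgcs1 and Insig1 are shown because, among the 15 genes, they held the motifs searched. For Hmgcs1 (chr13:119690101-119690400, strand +, GRCm38.p6), which encodes cytosolic HMG-CoA synthase, the capitals mark a match to the sterol regulatory letters TCACNCCAC that begins 137 bases before the start site. For Insig1 (chr5:28071162-28071461, strand +), they mark the E-box CACGTG, 101 bases before it.
Hmgcs1: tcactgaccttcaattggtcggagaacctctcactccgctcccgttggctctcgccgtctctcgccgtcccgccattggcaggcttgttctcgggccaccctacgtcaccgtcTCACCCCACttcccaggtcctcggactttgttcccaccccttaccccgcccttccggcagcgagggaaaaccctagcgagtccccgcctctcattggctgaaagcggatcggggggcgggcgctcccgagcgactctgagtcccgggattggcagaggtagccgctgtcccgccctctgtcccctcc
Insig1: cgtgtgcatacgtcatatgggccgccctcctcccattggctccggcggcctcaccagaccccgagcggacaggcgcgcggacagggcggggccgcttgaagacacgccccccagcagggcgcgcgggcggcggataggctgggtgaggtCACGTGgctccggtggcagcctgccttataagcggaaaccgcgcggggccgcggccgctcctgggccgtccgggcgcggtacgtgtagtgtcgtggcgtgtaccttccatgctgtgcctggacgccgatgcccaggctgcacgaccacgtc
Of the 15 genes, 7 had a RefSeq window, and 1 of the 7 held each motif. Of all 27025 genes with a window, 1.44% held TCACNCCAC and 8.09% held CACGTG on either strand, and of the 8672 tested genes with a window 1.42% and 12.4% did, and the first of these motifs was added to the search after the called genes had been seen.

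Hmgcs1 was at 52.6, 55.9, 75.7, and 85.0 CPM in -dox libraries and 300.5, 170.0, 169, and 151 CPM in 2i (log2 fold change 1.44 ± 0.27 (SE), adjusted p = 0.01). The media did not overlap, MKOS 2i replicate 1 stood above the other libraries in 2i, and the call was lost without MKOS -dox replicate 2 (adjusted p = 0.071). Insig1 was at 17.7, 4.79, 21.4, and 14.3 CPM in -dox libraries and 128, 35.6, 53.4, and 35 CPM in 2i (log2 fold change 1.96, adjusted p = 0.047), also without overlap, and was lost in 6 of 8 comparisons (adjusted p up to 0.15 without MKOS -dox replicate 2). The 2 stearoyl-CoA desaturases had the largest fold changes. Scd2 was at 61.7, 113, 29.7, and 53.1 CPM in -dox libraries and 549, 435, 383, and 309.7 CPM in 2i (log2 fold change 2.67 ± 0.26 (SE), adjusted p = 6e-05). Scd1 was at 10.5, 10.8, 5.15, and 21.7 CPM in -dox libraries and 150.5, 92.2, 106, and 89.8 CPM in 2i (log2 fold change 3.09 ± 0.36 (SE), adjusted p = 0.00036). For both, every library in 2i was above every -dox library. The remaining called members had log2 fold changes between 0.96 (Acly) and 1.54 (Sc4mol), among them Sqle (1.40, adjusted p = 0.015), which encodes squalene epoxidase, and Fdps (1.13, adjusted p = 0.031), which encodes farnesyl diphosphate synthase. The genes for the factors themselves were not called: Srebf2 had a log2 fold change of 0.98, adjusted p = 0.063 and Srebf1 of 0.89, adjusted p = 0.12, both without overlap between media, and Fasn of 0.82, adjusted p = 0.18. Srebf2 was called in 7 and Fasn in 2 of the 17 alternatives.

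**Figure D4:**
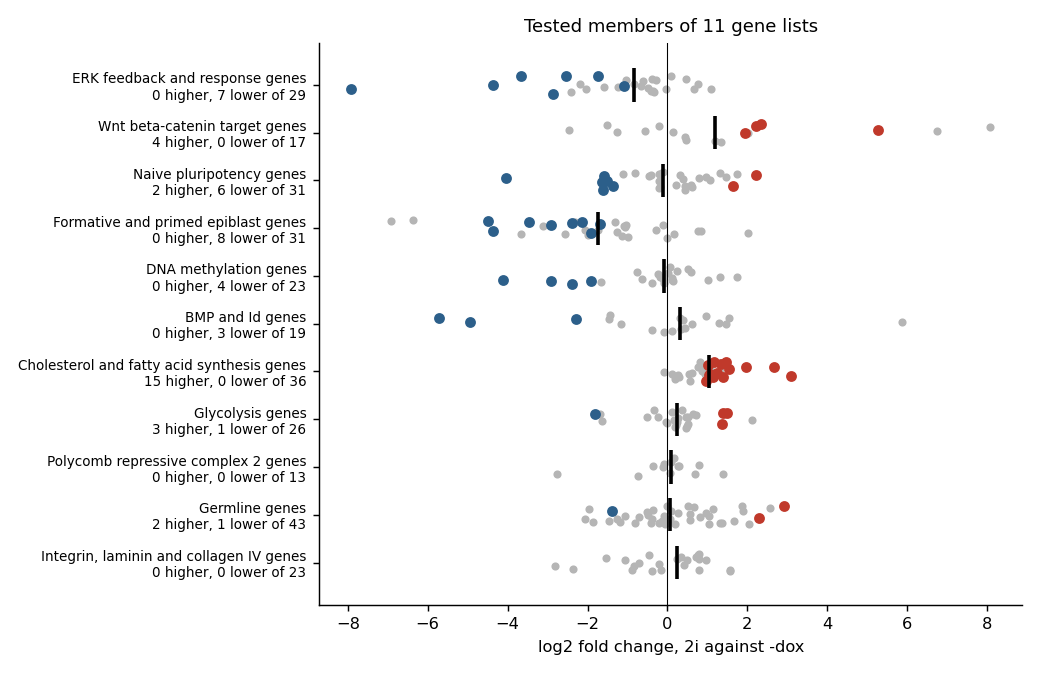
Log2 fold changes, 2i over -dox, of the tested members of 11 gene lists, with 1 point per gene, black ticks at the list medians, and the called members in red (higher) or blue (lower). Called members of the ERK, epiblast, DNA methylation, and Id lists lie to the left of 0 and those of the Wnt target and lipid synthesis lists to the right, whereas no member of the Polycomb and integrin lists was called.

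Outside these pathways, the genes with the largest fold changes were named by a fixed rule: the 12 in each direction with an average of at least 10 CPM in the higher medium and both libraries of 2i separated from both -dox libraries within each cassette. Highest was Pglyrp1, a secreted peptidoglycan recognition protein, which was at 0.104, 0, 0, and 0.891 CPM in -dox libraries and 130.1, 88.9, 100.1, and 27.9 CPM in 2i (log2 fold change 8.28 ± 0.70 (SE), adjusted p = 1.5e-05). ESC libraries held 0 to 0.985 CPM of it. The others higher in 2i were Cidea (5.33, adjusted p = 0.00066), Dmgdh (5.22, adjusted p = 0.02), Bhmt (5.02, adjusted p = 0.00033), 9030619P08Rik (4.96, adjusted p = 0.036), 5930412G12Rik (4.94, adjusted p = 0.0038), Crxos1_loc1 (4.55, adjusted p = 3.3e-05), Cadm4 (4.10, adjusted p = 0.025), Ly6a (4.08, adjusted p = 0.0073), Plagl1 (3.94, adjusted p = 0.0043), Mfsd7c (3.89, adjusted p = 0.032), and Trpm1 (3.88, adjusted p = 0.0038), with log2 fold changes in parentheses. Crxos1_loc1, a homeobox gene active in pluripotent cells, was at 6.74, 3.02, 7.01, and 1.60 CPM in -dox libraries and 104, 167, 117, and 80.6 CPM in 2i. For Ly6a, which encodes the surface antigen Sca-1, 19.4% of the reads were unique to 1 position, and for Bhmt 54.8%. Calls of Dmgdh, Cadm4, 9030619P08Rik, Mfsd7c, and Ly6a were lost when single libraries were left out (in 3, 3, 3, 5, and 1 of the 8 comparisons, with adjusted p up to 0.13 and 0.07 without OKMS 2i replicate 1, 0.16 without MKOS -dox replicate 2, 0.092 without MKOS 2i replicate 2, and 0.069 without MKOS -dox replicate 2).

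The strongest decrease was that of Spink3, a secreted serine protease inhibitor. It was at 24.2, 60.5, 14.6, and 47.6 CPM in -dox libraries and 0, 0, 0, and 0.176 CPM in 2i, where 1 read was counted in all (adjusted p = 1.5e-05), a level 728-fold (95% interval 130.3 to 28774, counting error only) higher in -dox libraries. The ESC libraries held 16.1 to 407 CPM. Slc7a7, a subunit of an amino acid transporter, varied little within either medium, with 48.6, 56.6, 63.3, and 38.3 CPM in -dox libraries and 1.73, 1.32, 2.64, and 1.23 CPM in 2i (log2 fold change -5.00 ± 0.36 (SE), adjusted p = 7.8e-06). Besides Spry4, Id3, Id1, Fgf15, and Myc, described above, the rule named Gm98 (-6.24, adjusted p = 0.0011), Dab2 (-5.59, adjusted p = 0.015), Enox1 (-5.30, adjusted p = 0.0028), Crmp1 (-4.97, adjusted p = 0.0075), and Esrp1 (-4.83, adjusted p = 0.0014), an epithelial splicing regulator. Dab2, an endocytic adaptor of primitive endoderm, was at 1.97, 38.0, 1.86, and 4.63 CPM in -dox libraries, so that 1 library stood far above the others. Without that library, MKOS -dox replicate 2, Dab2 was not called (adjusted p = 0.43), nor was Crmp1 (adjusted p = 0.057), and Dab2 was also lost without MKOS 2i replicate 2 (adjusted p = 0.052). Of 15 tested primitive endoderm genes Dab2 was the only one called (6.67%, beside 2.22% of all transcripts). Gata6, a master regulator of that lineage, was at 2.59, 4.08, 1.03, and 0.891 CPM in -dox libraries and 6.05, 0, 0, and 0 CPM in 2i (adjusted p = 0.67).

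Cdkn1a, the cell cycle inhibitor p21, was higher in 2i, with 28.5, 49.5, 102, and 48.8 CPM in -dox libraries and 370.1, 239.8, 210.5, and 301 CPM in 2i (log2 fold change 2.24 ± 0.35 (SE), adjusted p = 0.0028). It did not overlap between media and was called in all 8 comparisons with a library left out. Of 23 tested G1 regulators, the only other one called was Ccne1, the gene for cyclin E1, which was lower (54.4 to 88.2 CPM in -dox and 28.0 to 40.3 CPM in 2i, log2 fold change -1.07, adjusted p = 0.03) and was lost in 6 of the 8 (adjusted p up to 0.13 without MKOS -dox replicate 2). Of 26 tested glycolysis genes, the glucose transporter gene Slc2a3 (1.37, adjusted p = 0.025), Gpi1 (1.40, adjusted p = 0.022), and Hk1 (1.50, adjusted p = 0.016) were higher and Pdk1 (-1.81, adjusted p = 0.022), which restrains pyruvate oxidation, was lower, by log2 fold change. Slc2a3 was at 367, 196, 131, and 362 CPM in -dox libraries and 954, 571, 898, and 508 CPM in 2i. None of the 3 higher genes was called without MKOS 2i replicate 1, MKOS -dox replicate 2, or OKMS 2i replicate 1 (adjusted p up to 0.12). Pdk1 was lost in 3 of 8 comparisons (adjusted p up to 0.076 without MKOS -dox replicate 1), and 5 glycolysis genes were higher without MKOS -dox replicate 1. With all 8 libraries, 8.70% of the G1 list and 15.4% of the glycolysis list were called, beside 2.22% of all transcripts. Of 91 tested nuclear-encoded genes of oxidative phosphorylation, 2 were higher (2.20%, beside 2.22% of all transcripts called in either direction), Uqcrb (0.87, adjusted p = 0.046) and Cox7a1 (1.39, adjusted p = 0.037), and were lost in 7 and 6 of 8 comparisons (adjusted p up to 0.18 and 0.1 without MKOS -dox replicate 2).

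Kit, a receptor tyrosine kinase of germ cells and early progenitors, was at 19.8, 5.32, 10.1, and 10.2 CPM in -dox libraries and 45.6, 67.1, 56.9, and 69.2 CPM in 2i (log2 fold change 2.29 ± 0.35 (SE), adjusted p = 0.0028). With the meiotic cohesin gene Rec8 (2.92, adjusted p = 0.0075) it was 1 of 2 germline genes that were higher among 43 tested, and both were called in all 8 comparisons. The third called was Zcwpw1, which was lower (log2 fold change -1.39, adjusted p = 0.027), with overlapping groups and a call lost in 5 of 8 comparisons (adjusted p up to 0.086 without OKMS 2i replicate 2). Called germline genes made up 6.98% of those tested, beside 2.22% of all transcripts. Dazl and Stra8 reached 214 and 280.2 CPM in single libraries in 2i, but did not pass the test (adjusted p = 0.25 and 0.11). Of 16 tested genes of the 2-cell embryo program, which rare cells in such cultures express, Tbx3 was higher and Zscan4b and Zscan4f were lower in 2i. The called share was 18.8%, beside 2.22% of all transcripts. Apart from Tbx3, all tested members (15 of the 16) had a log2 fold change below 0, and the list median was -2.08. Zscan4f was at 42.9, 34.4, 105, and 16.0 CPM in -dox libraries and 15.3, 7.92, 3.17, and 1.05 CPM in 2i (log2 fold change -3.26, adjusted p = 0.025). No read of either gene was unique to 1 position, so the copies of this cluster cannot be told apart, and their calls were lost in 3 (Zscan4f) and 6 (Zscan4b) of 8 comparisons, with adjusted p up to 0.13 and 0.16 without OKMS 2i replicate 1. Without MKOS 2i replicate 1, 4 genes of this list were lower.

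Of 24 tested imprinted genes, Plagl1 was higher and Peg10, Mest, and H19 were lower, and all 4 were called whichever library was left out. Peg10 was at 61.6, 65.3, 88.0, and 42.6 CPM in -dox libraries and 16.6, 8.80, 9.86, and 8.96 CPM in 2i (log2 fold change -2.67, adjusted p = 0.00042), and Plagl1 at 0.933, 1.06, 0, and 1.07 CPM and 17.3, 15.6, 11.6, and 7.38 CPM. H19, a maternally expressed noncoding RNA, was at 25.9, 11.5, 83.7, and 54.5 CPM in -dox libraries and 1.08, 5.72, 13.2, and 5.27 CPM in 2i (log2 fold change -2.81, adjusted p = 0.0043). Its groups overlapped, and the ESC libraries, at 0.109 to 9.29 CPM, were below all 4 -dox libraries. Among 27 tested genes of the serum response and YAP, the actin-binding genes Cnn2 (-1.57, adjusted p = 0.006) and Tpm2 (-1.78, adjusted p = 0.0048) were lower. Of 15 tested interferon-stimulated genes, Ifi27l1 was higher (3.14, adjusted p = 0.038) and Bst2 lower (-2.66, adjusted p = 0.0046), and Ifi27l1 was lost in 5 of 8 comparisons (adjusted p up to 0.15 without OKMS 2i replicate 1). Of 26 tested Myc family and nucleolar genes, Myc and Mycn were the 2 called, and 4 were called without OKMS -dox replicate 1. Called shares of the imprinted, serum response, interferon, and Myc lists were 16.7%, 7.41%, 13.3%, and 7.69%, beside 2.22% of all transcripts.

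No gene was called among 83 cytosolic ribosomal protein genes, 29 mitochondrially encoded genes, 23 integrin, laminin, and collagen IV genes, 18 fibroblast genes, 10 trophoblast genes, 7 neuroectoderm genes, and the single mesoderm gene that was tested. With a library left out, at most 2 genes of any of these lists were called. Of the 83 ribosomal protein genes, 75 had a log2 fold change below 0, with a median of -0.19, against -0.0085 for all transcripts tested. Col1a1, the collagen gene that marks fibroblasts, was at 1.35, 0.887, 5.77, and 1.07 CPM in -dox libraries and 0.649, 4.62, 9.16, and 9.31 CPM in 2i (adjusted p = 0.52).

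Both cassettes were then considered separately, to ask whether the medium acted alike in them. In MKOS iPSCs alone 145 transcripts were called (1.17% of 12353), 77 higher and 68 lower in 2i, and in OKMS iPSCs 38 (0.308%), 11 higher and 27 lower. Of these, 23 were called in both, which was 60.5% of the OKMS and 15.9% of the MKOS calls. When the difference between the cassettes was tested itself, no transcript was called by edgeR (0.00% of 12353, smallest adjusted p = 0.49), 639 had an unadjusted p below 0.05 (5.17%), and DESeq2 called 16. With 2 libraries per cassette and medium the counts in each cassette were not stable. The MKOS count fell to 33 without MKOS -dox replicate 2, 52 without MKOS 2i replicate 2, 67 without MKOS 2i replicate 1, and 79 without MKOS -dox replicate 1, and the OKMS count ranged from 11 without OKMS 2i replicate 1 and 13 without OKMS 2i replicate 2 to 76 without MKOS 2i replicate 1 or replicate 2 and 107 without OKMS -dox replicate 2. Without OKMS -dox replicate 2, the test of the difference called 14 transcripts.

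Among genes named above, estimates in the cassettes were close for Slc7a7 (-5.14 in MKOS and -4.88 in OKMS on the log2 scale), Dnmt3a (-3.11 and -2.73), Tfcp2l1 (2.15 and 2.31), and Scd2 (2.43 and 2.92). They were further apart for Sc4mol (2.55 and 0.55, adjusted p of the difference 0.57) and Hmgcs1 (2.05 and 0.83, adjusted p of the difference 0.91), and neither difference passed.

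The called transcripts were set beside the 8 ESC libraries of the series (E14, TNG, TNG MKOS, and TNG OKMS, 2 libraries each), which the comparison of media did not use. The study's methods give the same medium, with fetal calf serum and LIF, for ESCs and iPSCs. The ESCs may therefore share a medium with the -dox iPSCs, and the part of the medium in what follows was not tested. For 135 of the 136 transcripts higher in 2i and 127 of the 138 lower, the ESC average of log2(CPM + 1) was nearer to the average of -dox iPSCs than to that of iPSCs in 2i. The same share over all tested transcripts was not computed, so these counts have no baseline. The median distance from ESCs was 0.35 for -dox and 1.92 for 2i over the higher transcripts, and 0.37 and 1.85 over the lower. Dusp6, for example, was at 23.2 to 96.4 CPM in ESCs, Dnmt3l at 240.2 to 443 CPM, and Scd2 at 40.7 to 144 CPM, each range overlapping the -dox values and lying clear of those in 2i. Dppa3, a maternal-effect gene that protects methylation in the zygote, was not called between media and lay at 12.6 to 182 CPM in ESCs, with a median of 46.9 CPM, against 117 to 482 CPM in -dox iPSCs and 161 to 898 CPM in 2i.

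**Figure D5:**
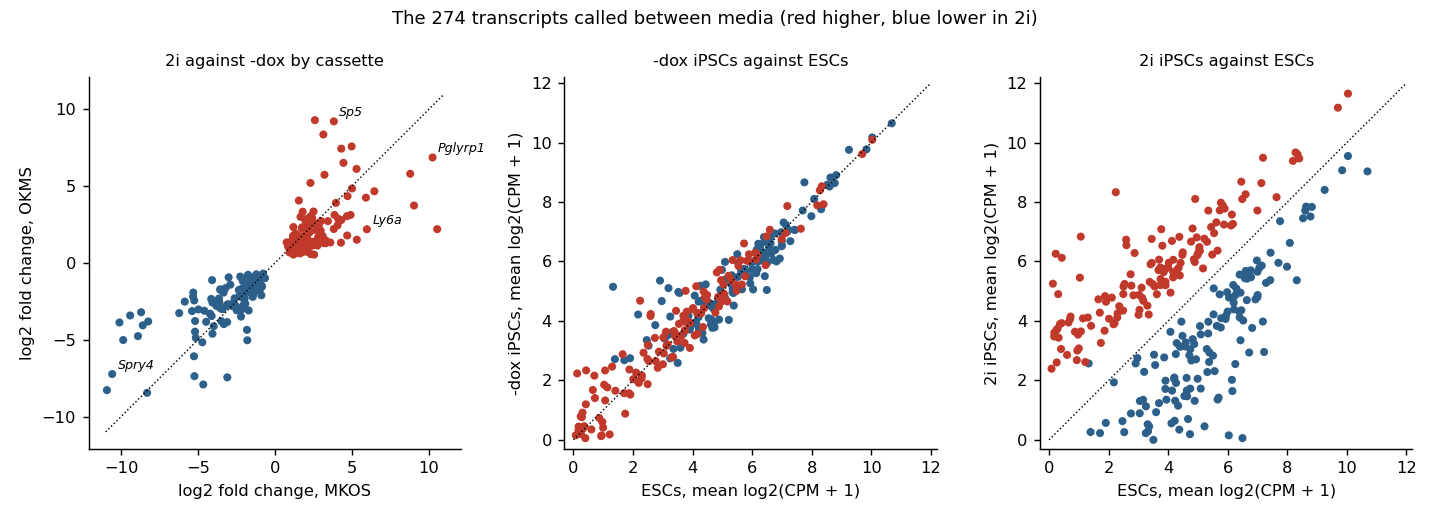
Each point is 1 of the 274 called transcripts, red if higher and blue if lower in 2i, with dotted lines of equality. The left panel plots the log2 fold change in OKMS against that in MKOS, and the other panels plot mean log2(CPM + 1) of -dox iPSCs and of iPSCs in 2i against that of 8 ESC libraries, where -dox values lie near the line and most values in 2i lie off it, red above and blue below.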

How the data were processed

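The 8 libraries were made from RNA of cells sorted by flow cytometry with the STRT protocol, which captures 5′ ends. The deposited values are raw counts of reads per transcript, which the authors obtained with the STRT pipeline, placing reads with several positions on the most 5′ exonic hit. The submitters' processing notes name Bowtie 0.12.7 and mm10, and the study's methods name mm9. The start positions in the file lie on GRCm38: of 15711 genes with a RefSeq window, 7485 lay within 200 bases of its start site. No coordinates from the file are printed. Of the 24264 transcript rows, those kept by edgeR's filterByExpr were tested, and repeat and spike-in rows were left out. CPM are reads scaled to the library's total on transcript rows.

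Counts were scaled by TMM and fitted with edgeR 4.0.16 (R 4.3.3) by the quasi-likelihood test, with cassette and medium as terms, and with 1 coefficient per condition for the effect in each cassette and the difference between them. Calls were made at a Benjamini-Hochberg adjusted p of at most 0.05 over all transcripts tested. SE is the log2 fold change divided by the square root of F. A fold against a group with no read uses a floor of 3 reads over the group, and a group with 1 to 3 reads is given as a ratio of reads with its exact interval, covering counting error only. On simulated counts of 12353 genes with 200 changed, edgeR called 184 of the 200 and 11 others, and DESeq2 1.42.0 called 189 and 31 others. The changed genes averaged at least 10 CPM and all changed by the same fold (median absolute log2 fold change 1.99 in edgeR). No cassette effect was simulated, and recovery of smaller changes or of genes at lower levels was not examined. No library pair differed by sampling noise alone (chi-square per degree of freedom 16.9 to 57.7).

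Named are the 12 largest called changes in each direction with an average of at least 10 CPM in the higher medium and separated media within each cassette, the called members of each list, and a fixed set of pathway genes. Other list members named were chosen after their values were seen. Some called list members are counted but not reported here by name. The members and lists were chosen with earlier results of these data known. Alternatives were DESeq2, its size factors, no TMM, no filter, all 48 libraries, replicate blocks, and leaving out each library.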

Additional observations from a re-analysis of the deposited data

Results flagged for a closer look

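In 3 of 72 groups of 4 libraries tested, 1 library stood apart, its gap to the nearest of the others taking a larger share of the group's range than the 95% limit that Dixon's test sets for 4 values; chance alone passes it in about 1 of 20 groups. The number of reads on transcripts in -dox libraries had a share of 0.836, MKOS replicate 1 having 9643768 reads. Klf4 in 2i, on the log2(CPM + 1) scale, had a share of 0.865, OKMS replicate 2 being the lowest at 74.1 CPM. Hmgcs1 in 2i, on the same scale, had a share of 0.83, MKOS replicate 1 being the highest at 300.5 CPM. Without that library, Hmgcs1 was still called (adjusted p = 0.018).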

How the results depend on the processing

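Which calls were made depended on the tool, the filter, and single libraries. Of 105 called genes tabulated, which were the named genes and the called list members, 17 were called in each of the 17 alternatives, MKOS and OKMS alone included. All 274 called genes had the same direction in these, but the alternatives share the libraries from which the genes were chosen. The count of 274 (136 higher, 138 lower) became 666 (321 and 345) with DESeq2, 759 (366 and 393) with no filter on low counts, and 679 (296 and 383) with all 48 libraries in the fit, which share 1 estimate of spread, and 291 (177 and 114) with no TMM factors. Of the 274, 273, 274, 250, and 250 were kept in the same direction. With 1 library left out it ranged from 121 to 331 (52 to 173 higher, 69 to 158 lower), 121 without MKOS -dox replicate 2, which kept 119 of the 274. For MKOS alone the count of 145 became 391, 478, and 308 with DESeq2, no filter, and all 48 libraries, and 33 to 214 with a library left out, and for OKMS alone 38 became 204, 296, and 79, and 11 to 107. For the difference between cassettes the count of 0 became 16, 69, and 1, and 0 to 14. The cause of these differences was not tested.

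The replicate numbers were not taken to pair the libraries, for which every correlation between same-numbered libraries' deviations from their condition means had to be over 0.1: of 6 pairs of conditions, 3 were over it (0.147 to 0.185) and 3 were not (-0.037 to 0.068). With a replicate block the count was 404 (194 higher, 210 lower), with 290 for MKOS, 113 for OKMS, and 0 for the difference between cassettes, and with the replicate block by cassette it was 384, 433, 203, and 22.

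Beside losses with a library left out or in 1 cassette alone, calls were lost with all 48 libraries for Lin28a, Mycn, Axin2, Sp5, Tnfrsf19, 5930412G12Rik (adjusted p = 0.071), Zcwpw1 (0.13), Tm7sf2 (0.078), and Aldh1l1 (0.1), with a replicate block by cassette for Bmp4 and Tm7sf2 (0.06), and with no TMM factors for Plaur (0.052). Of tabulated genes not called, the number of the 17 alternatives that called them was 8 for Klf4, 7 for Cdx1 and Srebf2, 5 for Lefty1 and Dusp4, 4 for Stra8, 3 for Lefty2, Dazl, and Id2, 2 for Nanog, Prdm14, Cdx2, and Fasn, and 1 for Dppa3 and Tet1.

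Among the tabulated genes not called, the sign turned for Egr1 (0.39 on the log2 scale), Dnmt1 (-0.13), and Stat3 (-0.43) in MKOS alone, for Lef1 (0.68), Dppa3 (-0.23), Dazl (-0.0076), and Uhrf1 (-0.0089) in OKMS alone, and for Ccnd1 with no TMM factors (0.052), a replicate block (0.044), a replicate block by cassette (0.011), and in OKMS alone (0.12). With a library left out, Ccnd1 ranged from -0.29 to 0.26, turned values lying between 0.025 and 0.26, and Klf2 from -0.55 to 0.055, turned values lying between 0.0091 and 0.055, and Zfp42 ranged from -0.71 to 0.027, Dnmt1 from -0.021 to 0.18, and Stat3 from -0.048 to 0.46, with 1 turned value each. There were 2 libraries per cassette and medium, 3 reads corresponded to 0.311 to 0.660 CPM, and 27 called genes had under 80% of their reads at a unique position.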

Other observations

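The genes below were chosen after their values were seen, so they have no independent test and are given as values. Bhmt2, which with Bhmt remethylates homocysteine, was at 0, 0, 0, and 0.178 CPM in -dox libraries (MKOS replicates 1 and 2, then OKMS replicates 1 and 2, here and below) and 3.24, 16.5, 7.40, and 6.67 CPM in 2i. A single read was counted in -dox libraries, and the level was 213-fold (95% interval 37.7 to 8464, counting error only) higher in 2i. With Dmgdh, Bhmt, and the folate enzyme gene Aldh1l1 (log2 fold change 2.45, adjusted p = 0.017), it was called higher, and the cysteine dioxygenase gene Cdo1 was too (2.87, adjusted p = 0.025), although Aldh1l1 was lost in 4 and Cdo1 in 5 of the 8 comparisons with a library left out (adjusted p up to 0.069 without MKOS -dox replicate 2 and 0.085 without MKOS -dox replicate 1).

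The metallothionein genes Mt1 (313, 975, 1172, and 1048 CPM in -dox and 2284, 2146, 2165, and 2670.3 CPM in 2i, adjusted p = 0.027) and Mt2 (504, 1151, 1854, and 1320.5 and 2969, 3416, 2963, and 3502 CPM, adjusted p = 0.019) were higher in 2i, as was the glutathione synthase gene Gss (7.78, 17.2, 11.3, and 28.0 and 41.9, 55.7, 36.5, and 91.5 CPM, adjusted p = 0.025). Asns, the asparagine synthetase gene, was higher (314, 172, 259, and 208 CPM in -dox and 745, 631, 790.4, and 712 CPM in 2i, log2 fold change 1.49, adjusted p = 0.0014), whereas the amino acid transporter gene Slc38a2 (-1.70, adjusted p = 0.0061) and the glutamine synthetase gene Glul (-1.56, adjusted p = 0.0043) were lower, and these 3 calls held whichever library was left out. The calls of Mt1, Mt2, and Gss were lost in 4, 2, and 3 of the 8 comparisons (adjusted p up to 0.073 without MKOS 2i replicate 2, 0.059 without MKOS -dox replicate 2, and 0.11 without OKMS 2i replicate 2).

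Outside the lipid list, Idh1, Me1, and Slc25a1, which supply NADPH or citrate for lipid synthesis, were higher in 2i, with log2 fold changes of 1.45, 1.55, and 1.30 and adjusted p of 0.03, 0.03, and 0.025. These calls were lost in 3, 5, and 3 of the 8 comparisons with a library left out. The adjusted p reached 0.16 (Idh1) and 0.098 (Slc25a1) without MKOS -dox replicate 2, and 0.13 (Me1) without MKOS 2i replicate 1. Grhl2, an epithelial transcription factor, was lower, with 12.9, 17.7, 16.7, and 9.62 CPM in -dox libraries and 2.81, 1.76, 2.64, and 1.58 CPM in 2i (log2 fold change -2.80, adjusted p = 0.0043), and was called in all 8 comparisons. Gli1, a Hedgehog target, was at 13.1, 13.5, 7.22, and 11.6 CPM in -dox libraries and 0.432, 0.220, 2.64, and 2.81 CPM in 2i (log2 fold change -3.26, adjusted p = 0.023), and was lost in 4 of 8 comparisons (adjusted p up to 0.075 without MKOS -dox replicate 2).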
